A study of Mus musculus with 6 samples.

Results

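The MHC class II presentation genes examined here were H2-Aa, H2-Ab1, H2-Eb1, Cd74, Ciita, H2-DMa, H2-DMb1, H2-Oa and H2-Ob. They were chosen by symbol from the deposited expression table, in which all 9 were found among 15280 genes. RNA-Seq had been carried out on 3 mammary tumors (libraries T11035, T11640 and T9232) and on the normal mammary gland next to each tumor (libraries M11035, M11640 and M9232), so that n = 3 mice for each tissue. All 6 samples carried the BK5.ATF3 transgene, in which the bovine keratin 5 promoter drives ATF3 in basal epithelial cells, and the study sequenced no wild-type animal. The females had raised a litter, were aged 6 to 12 months when tumors arose, and were killed once a tumor was 1.5 cm long. The strain background was not given in the sources used here. Libraries held 4750989 to 7806908 fragments on genes, and levels are given as CPM, the number of fragments scaled to the library's effective size. A floor of 3 fragments, which covers counting error only, corresponded to between 0.393 and 0.610 CPM. In whole tissue of this kind, fewer cells of a type and less RNA per cell cannot be told apart.

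MHC class II molecules are heterodimers that display peptides from endocytosed proteins to CD4 T cells, and they are made chiefly by B cells, dendritic cells and macrophages. The invariant chain, encoded by Cd74, guides the new dimer to endosomes, where H2-M exchanges the last invariant chain fragment for a peptide and H2-O restrains H2-M. Transcription of most class II genes depends largely on Ciita, a coactivator that is recruited by RFX and NF-Y proteins bound to the X and Y boxes of the promoters. Interferon gamma induces Ciita in many other cell types.

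The 9 genes had lower mean CPM in the tumors, but by very different amounts. H2-Ob, H2-Oa and Ciita were DEGs (an FDR of at most 0.05 and a fold change of at least 2) and fell, while the class II chains, Cd74 and both H2-M chains did not pass. The 3 DEGs that fell stood beside a background of 13.7% of all genes called lower in the tumors, and 0 of the 9 genes were called higher beside a background of 14.5%. At an unadjusted p under 0.05, 6 of the 9 genes were lower and 0 higher in limma. The share of all genes at that threshold was not computed, so such counts, here and below, have no background. As DEGs, edgeR and DESeq2 also called 3 lower and 0 higher. For 5 of the 9 genes (H2-Eb1, Ciita, H2-DMa, H2-Oa and H2-Ob), each of the 3 tumors lay below each of the 3 glands, beside 26.3% of all genes. The level was lower in the tumor than in the gland of the same mouse in all 3 mice for 8 of the 9 genes, beside 33.3% of all genes, and H2-DMb1 was the exception. The median log2 fold change of the 9 genes was −0.75, with a range from −4.27 for H2-Ob to −0.25 for H2-Ab1, whereas the median over all genes was 0.00.

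**Figure D1:**
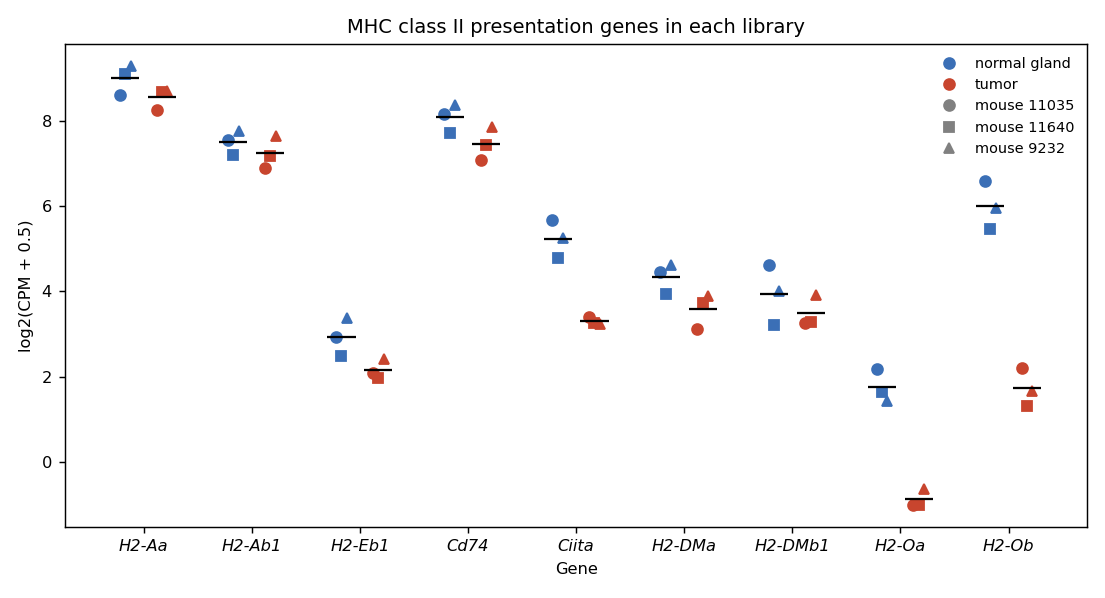
Level of each of the 9 class II presentation genes in the 6 libraries, as log2(CPM + 0.5). Blue symbols are normal glands, red symbols are tumors, shapes mark the 3 mice, and black bars are the means of 3 libraries. The symbols of both tissues are wide apart for Ciita, H2-Oa and H2-Ob, and lie close together or interleave for H2-Aa, H2-Ab1 and H2-DMb1.

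Among the class II chains, H2-Aa (mm9 chromosome 17, 34406276 to 34424772, minus strand) encodes the alpha chain of the I-A heterodimer. H2-Aa had 386, 544 and 622 CPM in glands M11035, M11640 and M9232, and 306, 406 and 417 CPM in the tumors of the same mice. Each tumor was below its own gland, but tumors T11640 and T9232 were above the lowest gland, so the tissues overlapped. The mean was 517 ± 120 CPM (SD, n = 3) in glands and 376 ± 61.3 CPM in tumors, with a log2 fold change of −0.45 (SE 0.21, 95% interval −0.91 to 0.02, adjusted p = 0.116). With the mouse as a block the adjusted p was 0.0239, still below a fold change of 2.

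The partner chain, H2-Ab1 (chromosome 17, 34400154 to 34406363), encodes the beta chain of I-A. Its level was 185, 145 and 217 CPM in the glands and 119, 144 and 200.0 CPM in the tumors. T11640 was nearly equal to M11640, and the ranges overlapped. H2-Ab1 showed the least difference of the 9 genes, with 182 ± 36.0 CPM in glands against 154 ± 41.4 CPM in tumors and a log2 fold change of −0.25 (SE 0.22, 95% interval −0.76 to 0.25, adjusted p = 0.393). H2-Aa and H2-Ab1 are transcribed towards each other and share 17 bp of exon. Whether fragments were counted by strand was not given in the sources used here, so fragments in that overlap cannot be told apart.

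H2-Eb1 (chromosome 17, 34442828 to 34453144) encodes the beta chain of the second heterodimer, I-E. H2-Eb1 was a low gene, with 7.12, 5.12 and 9.85 CPM in the glands and 3.72, 3.41 and 4.80 CPM in the tumors. All tumors lay below all glands, although gland M11640 and tumor T9232 differed by little. The log2 fold change was −0.78 (SE 0.29, 95% interval −1.44 to −0.12, adjusted p = 0.0601), so H2-Eb1 missed both thresholds. Without gland M11640 it reached −1.001 with an adjusted p of 0.0308 and was then a DEG. With the mouse as a block the adjusted p was 0.0442 at the same fold change.

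Cd74 (chromosome 18, 60963502 to 60972300) had 286, 208 and 330 CPM in the glands and 134, 171 and 230 CPM in the tumors. Tumor T9232 exceeded gland M11640, so the tissues overlapped, while each tumor was below its own gland. The mean went from 275 ± 62.0 CPM to 178 ± 48.2 CPM, with a log2 fold change of −0.63 (SE 0.24, 95% interval −1.17 to −0.09, adjusted p = 0.0609, and 0.0284 with the mouse as a block).

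The chains of H2-M, the peptide exchange factor, are encoded by H2-DMa (chromosome 17, 34272127 to 34276046) and H2-DMb1 (34290017 to 34297168). H2-DMa had 21.3, 14.9 and 23.9 CPM in the glands and 8.19, 12.7 and 14.4 CPM in the tumors. The tissues did not overlap, but tumor T9232 was only just below gland M11640. The log2 fold change of H2-DMa was −0.75 (SE 0.27, 95% interval −1.37 to −0.14, adjusted p = 0.0533). H2-DMb1 had 24.0, 8.75 and 15.7 CPM in the glands and 9.12, 9.31 and 14.7 CPM in the tumors. Its high gland was M11035, and tumor T11640 was slightly above gland M11640 of the same mouse, with a log2 difference of 0.08. The log2 fold change of H2-DMb1 was −0.45 (SE 0.36, 95% interval −1.27 to 0.37, adjusted p = 0.345), and it ranged from −0.12 without gland M11035 to −0.82 without gland M11640. The transcripts of H2-DMb1 and its neighbor H2-DMb2 were 95.7% identical over 1004 bp, so counting could have divided fragments between them, and the level of either is uncertain to that extent.

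H2-O, the inhibitor of H2-M, is formed by the products of H2-Oa and H2-Ob and is known chiefly from B cells and some dendritic cells. H2-Ob (chromosome 17, 34375848 to 34390850) had 95.8, 43.3 and 61.6 CPM in the glands and 4.09, 1.97 and 2.70 CPM in the tumors. The lowest gland was far above the highest tumor, and M11035 and T11035, from the same mouse, were the highest of their tissues. The mean fell from 66.9 ± 26.6 CPM to 2.92 ± 1.08 CPM. The log2 fold change was −4.27 (SE 0.33, 95% interval −5.03 to −3.51, adjusted p = 2.97e-05), or 19.3-fold lower. In the limma fit this was the largest fall of the 9 genes. H2-Oa fell further than H2-Ob with edgeR (−5.39 against −4.54) and with DESeq2 (−5.73 against −4.53). The within-mouse log2 differences of H2-Ob were −4.39, −4.15 and −4.28, so they varied little between the 3 mice.

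H2-Oa (chromosome 17, 34229285 to 34232179) had 4.07, 2.64 and 2.19 CPM in the glands, and 0, 0 and 0.150 CPM in the tumors. These values rest on 52 fragments in the 3 glands and 1 fragment in the 3 tumors. All tumors were below the floor of 3 fragments and all glands were above it. H2-Oa fell with a log2 fold change of −2.63 (SE 0.37, adjusted p = 6.59e-04) on the log2(CPM + 0.5) scale, which understates the change of so low a gene. The gland over tumor ratio of the fragments was 56.0, with an exact 95% interval from 9.61 to 2253 for counting error only. The fitted log2 fold change of H2-Oa depended on the setting, from −1.89 with a pseudocount of 1 to −5.73 with DESeq2, and it passed both thresholds in all 14 alternatives.

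Ciita, the coactivator (chromosome 16, 10480237 to 10527657), had 50.4, 26.9 and 37.5 CPM in the glands and 10.05, 9.04 and 8.99 CPM in the tumors. The tumors were close to each other and all far below the lowest gland. Ciita fell from 38.3 ± 11.8 CPM to 9.36 ± 0.596 CPM, with a log2 fold change of −1.93 (SE 0.24, 95% interval −2.48 to −1.38, adjusted p = 3.59e-04), or 3.81-fold lower.

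Because every value of a library shares the same scaling, ratios of genes within a library were compared next. With 3 against 3 libraries, the smallest p that the exact two-sided permutation test can give is 0.10, so no ratio could pass 0.05, and p-values were adjusted over the 4 ratios of the design. The log2 ratio of H2-Ob to H2-DMb1 was 1.97, 2.24 and 1.93 in the glands and −1.07, −1.99 and −2.25 in the tumors. On the scale of CPM per kb too, H2-Ob exceeded H2-DMb1 in every gland and lay below it in every tumor. The means of the log2 ratio of CPM were 2.05 ± 0.17 and −1.77 ± 0.62 (difference −3.82, exact p = 0.10, adjusted p = 0.13). The log2 ratio of H2-Oa to H2-DMa was −2.58 ± 0.53 in glands and −4.45 ± 0.31 in tumors (difference −1.88, exact p = 0.10, adjusted p = 0.13), again with no overlap. The tumor value there rests on the pseudocount, since H2-Oa was at 0 in 2 of the tumors.

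The ratio of the I-A chains, H2-Aa to H2-Ab1, varied among the glands more than it differed between the tissues. Its log2 values were 1.06, 1.90 and 1.52 in the glands and 1.35, 1.49 and 1.06 in the tumors, with overlap (difference −0.19, exact p = 0.40, adjusted p = 0.40). The ratio of Cd74 to H2-Ab1, in contrast, was tight in both tissues, at 0.63, 0.52 and 0.60 in the glands and 0.17, 0.25 and 0.20 in the tumors. All tumors were below all glands, with means of 0.58 ± 0.06 and 0.21 ± 0.04 (difference −0.38, exact p = 0.10, adjusted p = 0.13).

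A further 4 ratios were chosen once the values were known, and each gave an exact p of 0.10 and an adjusted p of 0.11 over all 8. The log2 ratio of Ciita to H2-Ab1 went from −2.26 ± 0.35 in glands to −3.94 ± 0.45 in tumors, so Ciita was lower relative to H2-Ab1 in every tumor than in any gland. The log2 ratio of H2-Ab1 to Ptprc, which encodes the pan-leukocyte surface protein CD45, went the other way, from −2.85 ± 0.31 to −1.65 ± 0.26 (difference 1.20). Of the 7 pan-leukocyte markers listed, Ptprc had the lowest log2 fold change (−1.45) and Cd53 the highest (−0.01), with H2-Ab1 at −0.25 between them. The sign of such a ratio therefore depends on the leukocyte gene chosen. The log2 ratio of H2-Eb2 to H2-Eb1 went from 0.89 ± 0.34 to −1.11 ± 0.34, and that of H2-DMb2 to H2-DMb1 from −0.10 ± 0.08 to −1.40 ± 0.25.

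**Figure D2:**
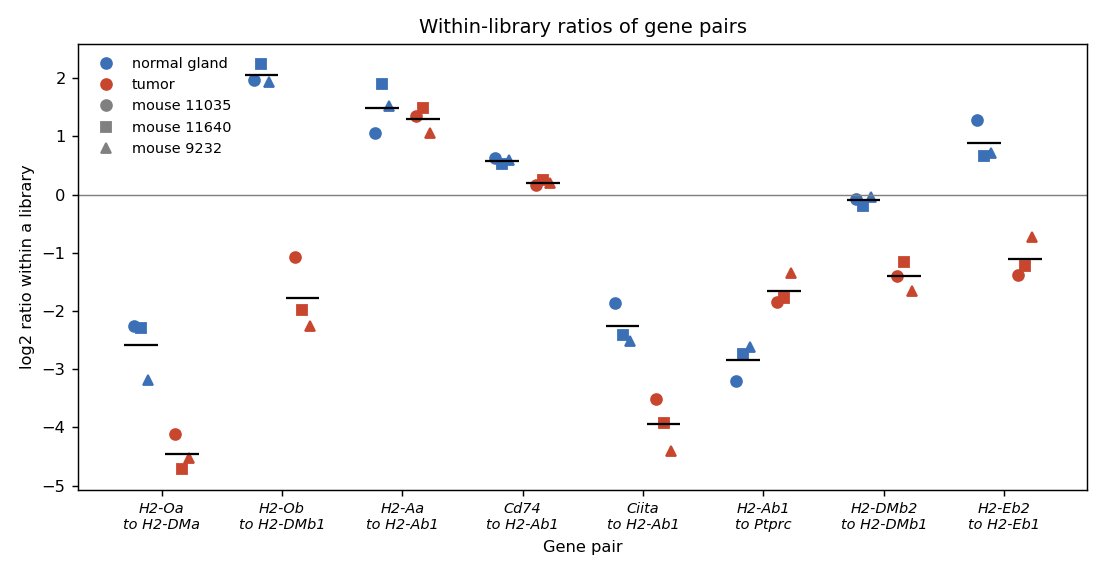
log2 ratios of 8 gene pairs within each library, from log2(CPM + 0.5). Blue symbols are normal glands, red symbols are tumors, shapes mark the mice, and black bars are means of 3 libraries. The tissues interleave for H2-Aa to H2-Ab1 and are apart for the other pairs, of which H2-Ab1 to Ptprc is the one that is higher in the tumors.

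The genes were then ordered by CPM per kb of their longest coding transcript, so that levels could be compared between genes. This order depends on the length used. In the glands, H2-Aa was first with 457 ± 106 CPM per kb, followed by Cd74 with 195 ± 44.0 and H2-Ab1 with 151 ± 29.7, of which the last 2 overlapped. H2-Ob came next with 25.0 ± 9.97 CPM per kb, above H2-DMa (12.9), H2-DMb1 (11.6), Ciita (7.24) and H2-Eb1 (6.25). Neighbors from H2-DMa to H2-Eb1 overlapped, and H2-Oa was last with 2.73, below H2-Eb1 with no overlap. In the tumors, H2-Aa (332 ± 54.1 CPM per kb) again exceeded H2-Ab1 (128) and Cd74 (127), which overlapped. H2-DMb1 (7.90) and H2-DMa (7.56) followed, then H2-Eb1 (3.37), Ciita (1.77), H2-Ob (1.09) and H2-Oa (0.0459), with no overlap from H2-DMa downwards. H2-Ob therefore moved from rank 4 in the glands to rank 8 in the tumors, while H2-Aa stayed at rank 1. I-A transcripts far exceeded H2-Eb1 in both tissues. Class II coding sequences differ between mouse haplotypes, so how well these fragments map to the reference may differ between the genes, and this was not tested.

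Of the 9 genes, 7 lie within the class II region on chromosome 17, with Ciita on chromosome 16 and Cd74 on chromosome 18. Genes with large and small differences lay next to each other. H2-Ob starts 147 kb and H2-Ab1 171 kb after the start of H2-Oa, and their log2 fold changes were −4.27 and −0.25. Brd2, which encodes a widely expressed bromodomain protein and lies between H2-Oa and H2-DMa, differed by −0.03 (SE 0.14, adjusted p = 0.904). The other class II genes in the table were all DEGs and fell: H2-Eb2 by 2.78 (SE 0.38, adjusted p = 6.24e-04), H2-DMb2 by 1.75 (SE 0.37, adjusted p = 0.00590) and the pseudogene H2-Ea-ps by 1.20 (SE 0.34, adjusted p = 0.0205) on the log2 scale. H2-Eb2 had 18.1, 8.42 and 16.6 CPM in the glands and 1.12, 1.18 and 2.70 CPM in the tumors. Per kb of transcript, H2-Eb2 was above H2-Eb1 in gland M11035, below it in glands M11640 and M9232 and below it in every tumor. Per kb of coding sequence, however, the gland mean of H2-Eb2 (16.6) was above that of H2-Eb1 (9.26). H2-DMb2 had 22.8, 7.60 and 15.3 CPM in the glands and 3.16, 3.93 and 4.35 CPM in the tumors, and per kb it was below H2-DMb1 in every library. The transcripts of H2-Eb1 and H2-Eb2 were 77.9% identical over 779 bp. Between H2-DMb1 and H2-Ob lie genes of class I presentation, of which Tap1 differed by −0.30, Psmb8 by −0.44 and Tap2 by −0.97 without passing, while Psmb9 fell by 1.05 (adjusted p = 0.0157).

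**Figure D3:**
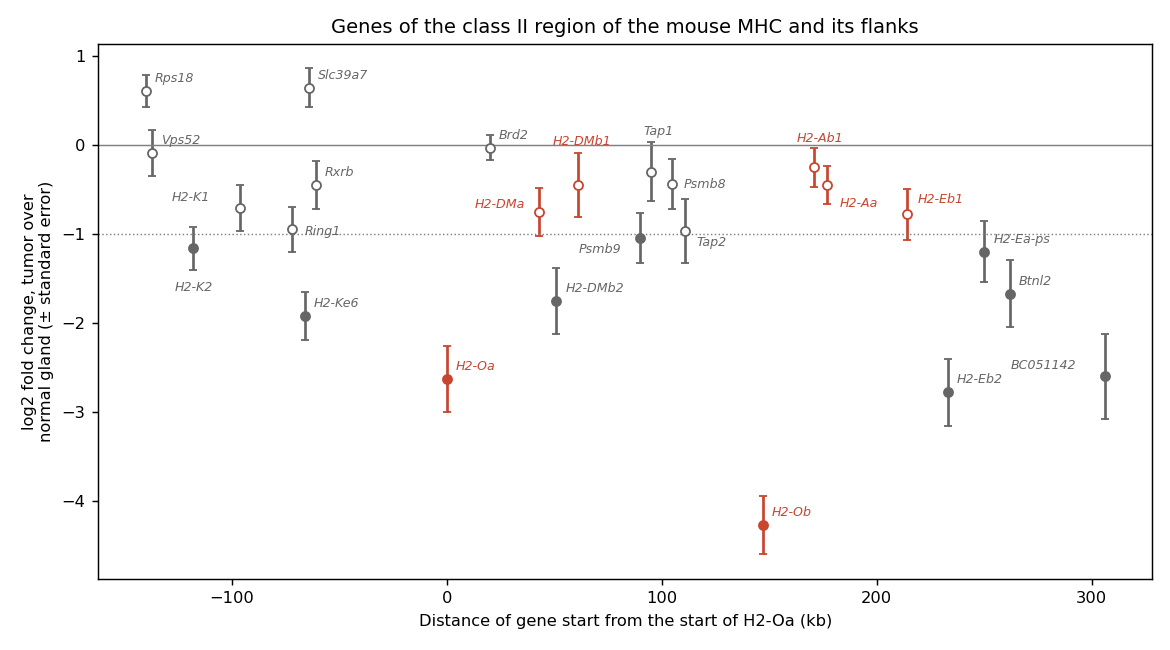
log2 fold change (tumor over normal gland, 3 mice each) of the genes from 140 kb before to 306 kb after the start of H2-Oa, against the distance of each gene's start from that of H2-Oa in kb. Red marks the class II presentation genes, grey the other genes, filled symbols are DEGs, and bars are standard errors. H2-Ob at −4.27 lies between Tap2 at −0.97 and H2-Ab1 at −0.25, and H2-Oa at −2.63 lies next to Brd2 at −0.03.

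Promoter windows from 250 bases before to 50 after the start were available from RefSeq (GRCm38.p6) for H2-Aa, H2-Eb1, H2-DMa, H2-DMb1, H2-Oa and H2-Ob. These are 6 of the 9 genes, and windows of H2-Ab1, Cd74 and Ciita were not used here. The letters searched on both strands were ATTGG, the core of the Y box bound by NF-Y, CTGATTGG, a longer Y box, and AGCAAC, a half-site of the X box bound by RFX. The stretches below are shown because genes that fell strongly (H2-Ob, H2-Oa and H2-Eb2) and genes that did not pass (H2-Aa, H2-Eb1 and H2-DMb1) can be read side by side. Capitals mark the letters GNAAC of the X box half-site and ATTGG.
H2-Ob, chr17:34238809-34238856, plus strand: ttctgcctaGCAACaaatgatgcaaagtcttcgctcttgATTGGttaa
H2-Oa, chr17:34092294-34092344, plus strand: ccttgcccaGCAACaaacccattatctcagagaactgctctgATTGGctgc
H2-Eb2, chr17:34325534-34325583, plus strand: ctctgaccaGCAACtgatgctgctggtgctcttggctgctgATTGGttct
H2-Aa, chr17:34287863-34287913, minus strand: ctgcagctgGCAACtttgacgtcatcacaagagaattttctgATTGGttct
H2-Eb1, chr17:34305767-34305816, plus strand: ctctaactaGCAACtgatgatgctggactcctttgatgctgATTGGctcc
H2-DMb1, chr17:34153088-34153138, plus strand: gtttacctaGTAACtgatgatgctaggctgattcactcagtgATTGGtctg

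The start of the half-site lay 30 bases before that of ATTGG in H2-Ob, 32 in H2-Eb1 and H2-Eb2, and 33 in H2-Aa, H2-DMb1 and H2-Oa. Such a pair, with GNAAC starting 30 to 33 bases before ATTGG on the sense strand, was found in 116 of 32851 windows (0.35%), a search added after these windows had been seen. AGCAAC followed by ATTGG within 50 bases, as searched first, was found in 0.31% of windows and in those of H2-Eb1, H2-Oa, H2-Ob and H2-Eb2. CTGATTGG was held by the windows of H2-Aa, H2-Eb1, H2-Oa and H2-Eb2 and by 4.1% of all windows, ATTGG alone by 37.4%, AGCAAC by 14.8% and GNAAC by 84.8%. The windows of H2-DMa and H2-DMb2 held no pair at 30 to 33 bases, which says only that these letters are not in those windows. The pair was thus present in genes that fell and in genes that did not pass.

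Transcripts of the factors that bind these promoters differed by less than 2-fold. Of 7 promoter factors, 0 were DEGs in limma, edgeR or DESeq2, 1 was lower at an unadjusted p under 0.05, and the median log2 fold change was 0.06. Rfx5, the DNA-binding subunit of RFX, was the lowest with 47.8, 30.4 and 42.4 CPM in the glands and 24.9, 21.5 and 22.6 CPM in the tumors. Its tumors lay below its glands, with a log2 fold change of −0.77 (SE 0.20, adjusted p = 0.0156), which is less than a fold change of 2. The other RFX subunits, Rfxap and Rfxank, differed by 0.06 and 0.10, and the NF-Y subunit Nfyb by 0.22 (adjusted p = 0.322), the highest of the list.

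Of the 8 genes listed for the interferon gamma route to Ciita, 7 were in the table and 0 were DEGs in limma, edgeR or DESeq2, with a median log2 fold change of −0.59. At an unadjusted p under 0.05, 3 were lower and 1 was higher. Jak1, a kinase of the receptor, was lower by 0.67 (SE 0.15, adjusted p = 0.00809) on the log2 scale. Ifngr1 (log2 fold change −0.63, adjusted p = 0.0272) and Irf2 (−0.61, adjusted p = 0.0205) were lower too. Jak2, the partner kinase of Jak1, was higher by 0.49 (SE 0.13, adjusted p = 0.0150). All of these were below a fold change of 2. Irf1, which acts at an interferon-responsive promoter of Ciita, had 41.5, 30.1 and 58.3 CPM in the glands and 25.1, 23.2 and 35.7 CPM in the tumors, with overlap (log2 fold change −0.59, SE 0.27, adjusted p = 0.109). March1 and March8, ubiquitin ligases that remove class II molecules from the surface, differed by −0.37 and −0.49, were not called by any of these tools, and had unadjusted p-values above 0.05.

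**Figure D4:**
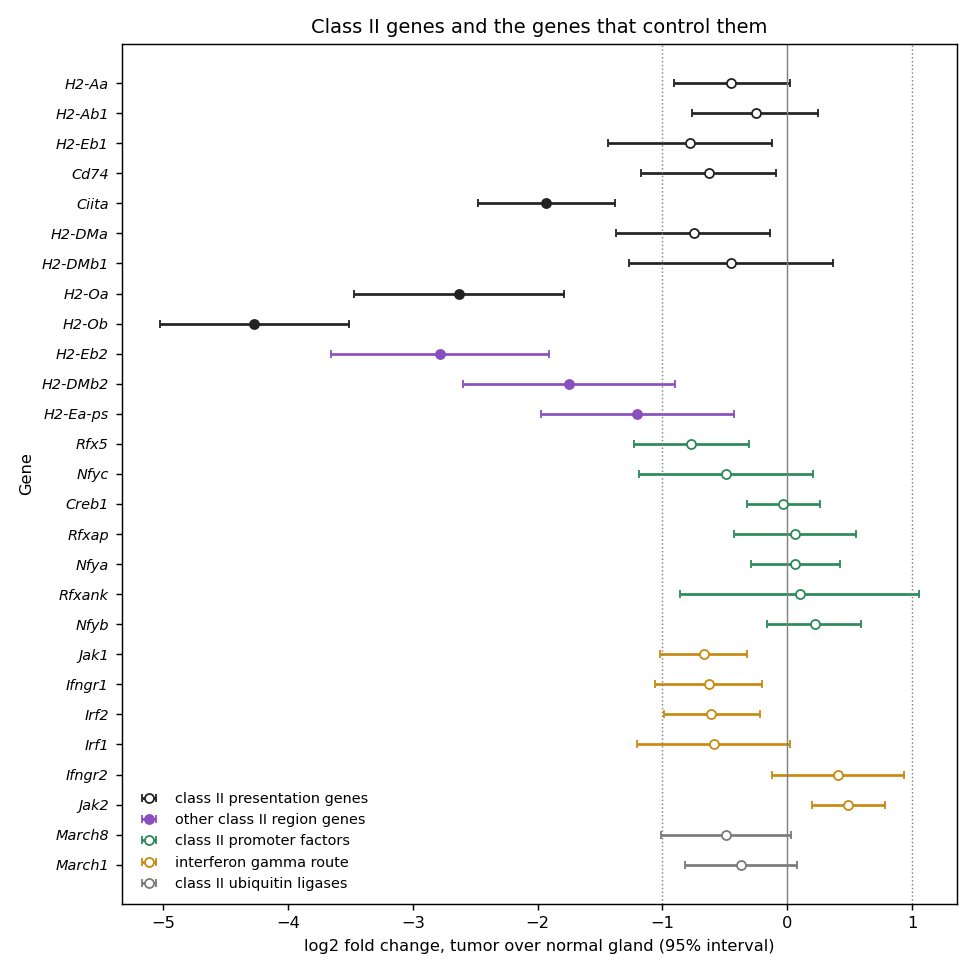
log2 fold change (tumor over normal gland, 3 mice each) with its 95% interval for the 9 class II presentation genes, 3 other class II genes of the region, and listed promoter factors, genes of the interferon gamma route and ubiquitin ligases. Filled symbols are DEGs and dotted lines mark a fold change of 2 in either direction. Filled symbols occur only among the class II presentation genes and the other class II genes of the region.

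Genes for endolysosomal proteins that process antigen and the invariant chain were mostly not called. Of 11 listed, 10 were in the table, 1 was a DEG and rose, beside 14.5% of all genes called higher, and the median log2 fold change was −0.07. The DEG was Lgmn, which encodes a lysosomal endopeptidase, with 35.6, 42.3 and 60.3 CPM in the glands and 79.8, 109 and 141 CPM in the tumors. Its tissues did not overlap (log2 fold change 1.24, SE 0.26, adjusted p = 0.00515). Ctss, which encodes the protease that trims the invariant chain in dendritic cells and B cells, had 316, 608 and 1234 CPM in the glands and 686, 1123 and 1160 CPM in the tumors, with overlap (log2 fold change 0.64, SE 0.44, adjusted p = 0.275). Ctsd was the lowest of the list at −0.49 (adjusted p = 0.380). There were 2 DEGs in this list without gland M9232 or without tumor T11035.

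Class I presentation, the route for peptides made in the cytosol, had 1 DEG among 9 genes, which fell, beside 13.7% of all genes called lower. At an unadjusted p under 0.05, 4 of the 9 were lower and 0 were higher. The DEG was Psmb9, an immunoproteasome subunit, which had 65.5, 55.5 and 117 CPM in the glands and 33.1, 32.1 and 43.9 CPM in the tumors. The tissues did not overlap for Psmb9. The median log2 fold change of the class I list was −0.55, and its highest member was Tapbp at 0.16. Nlrc5, the class I counterpart of Ciita, had 79.7, 51.7 and 101 CPM in the glands and 57.9, 39.3 and 58.4 CPM in the tumors, with overlap (log2 fold change −0.55, SE 0.27, adjusted p = 0.134). The number of DEGs in this list was 0 without gland M9232, without tumor T11035 or without tumor T11640, and 2 without gland M11640 or with edgeR or DESeq2.

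Most genes on the T cell side of the contact with the presenting cell fell. Of 6 genes of the CD4 T cell side, 5 were DEGs and fell, with a median log2 fold change of −2.32. Cd4, the coreceptor that binds class II molecules, had 94.9, 47.6 and 103 CPM in the glands and 8.56, 12.5 and 18.1 CPM in the tumors (log2 fold change −2.59, SE 0.35, adjusted p = 5.36e-04). Cd28 had the largest fall at −3.99 (adjusted p = 2.29e-05), Icos and Ctla4 were at −2.05 and −1.17, and Cd40lg had 1 fragment in the 3 tumors together. Lag3, an inhibitory receptor that also binds class II, was not called, at −0.55 (adjusted p = 0.281). Costimulatory ligands of the presenting cell were mixed. Of 5 in the table, Tnfsf4 and Cd80 rose by 2.62 and 1.42 on the log2 scale, Icosl fell by 1.38, and Cd86 and Cd40 were not called by limma, at −0.29 and −0.95. Cd40 was called lower by edgeR (−1.06, adjusted p = 0.0203) and by DESeq2 (−1.05, adjusted p = 0.0149).

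Markers of the cell types that make class II molecules differed widely between the tissues. All 10 B cell markers fell, with a median log2 fold change of −4.48. Their summed level was 354 to 892 CPM in the glands and 18.4 to 20.3 CPM in the tumors. Ms4a1, which encodes CD20, fell by 6.10 on the log2 scale (adjusted p = 5.43e-06), and 0 of the 10 B cell markers were at 0 in all tumors. Among the glands, H2-Ob, Ciita, H2-DMb1, H2-DMb2, H2-Eb2 and H2-Ea-ps were highest in M11035 and lowest in M11640. The summed B cell, T cell and pan-leukocyte markers had that order too. H2-Oa was highest in M11035 but lowest in M9232, while H2-Aa, H2-Ab1, H2-Eb1, Cd74 and H2-DMa were highest in M9232. Among the tumors, H2-Ob was highest in T11035, where the summed B cell level was lowest, at 18.4 CPM. Of 14 dendritic cell markers in the table, 11 fell and 1 rose, with a median of −1.85 and a summed level of 311 to 448 CPM against 129 to 158 CPM. Irf4 was the lowest at −3.21, Clec9a and Xcr1, of the cross-presenting subset, fell by 2.48 and 1.78, and Itgax rose by 1.09, a call that edgeR did not make. Cd207, of Langerhans cells, fell by 1.09, but with the mouse as a block its adjusted p was 0.0673 and with DESeq2 it was 0.0942. Of 12 macrophage markers, 1 rose (Fcgr1, by 2.88) and 0 fell in limma, edgeR or DESeq2, and their median was 0.61. That 1 call stood beside 14.5% of all genes called higher in limma. At an unadjusted p under 0.05, 1 macrophage marker was lower and 3 were higher. The number of macrophage markers called was 3 without gland M9232 and 2 without tumor T11035. Their summed level was 1137 to 4037 CPM in the glands and 1286 to 2527 CPM in the tumors, with overlap. The part of each of these cell types in the levels of H2-O, Ciita and the class II chains was not tested.

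Other cells moved as well. Of 10 T cell markers, 9 fell, with a median of −2.93 and a summed level of 180 to 486 CPM against 48.1 to 69.5 CPM, and Thy1 was the exception at 0.78 (not called). Of 7 pan-leukocyte markers, Ptprc and Coro1a fell, at −1.45 and −1.38, and 5 were not called by limma. Cd52 was called lower as well by edgeR (−1.05, adjusted p = 0.0406) and DESeq2 (−1.04, adjusted p = 0.0152). Their summed level was 1382 to 2410 CPM against 790 to 1093 CPM, and the 5 included Cd53 at −0.01. Without gland M11640, 4 of the 7 were called. Of the 7 neutrophil markers, 4 rose and 2 fell, with a summed level of 226 to 618 CPM against 864 to 1424 CPM. Of 6 lymph node stroma genes listed, 3 were in the table and 2 of these fell, with a summed level of 250 to 948 CPM in the glands and 9.49 to 67.9 CPM in the tumors. Glycam1, made by high endothelial venules and by milk-producing epithelium, had 689, 208 and 850 CPM in the glands and 2.61, 1.83 and 3.30 CPM in the tumors (log2 fold change −7.36, adjusted p = 1.15e-05). Chst4 fell and was at 0 in all tumors, and Cxcl13 was at −1.91 (adjusted p = 0.0611). With the mouse as a block the adjusted p of Cxcl13 was 0.0166, so that all 3 were called. The part of lymphoid tissue in the glands, in any of the differences given here, was not tested. Of 6 epithelial markers 5 rose, and all 6 adipocyte markers fell, with medians of 2.03 and −6.18.

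**Figure D5:**
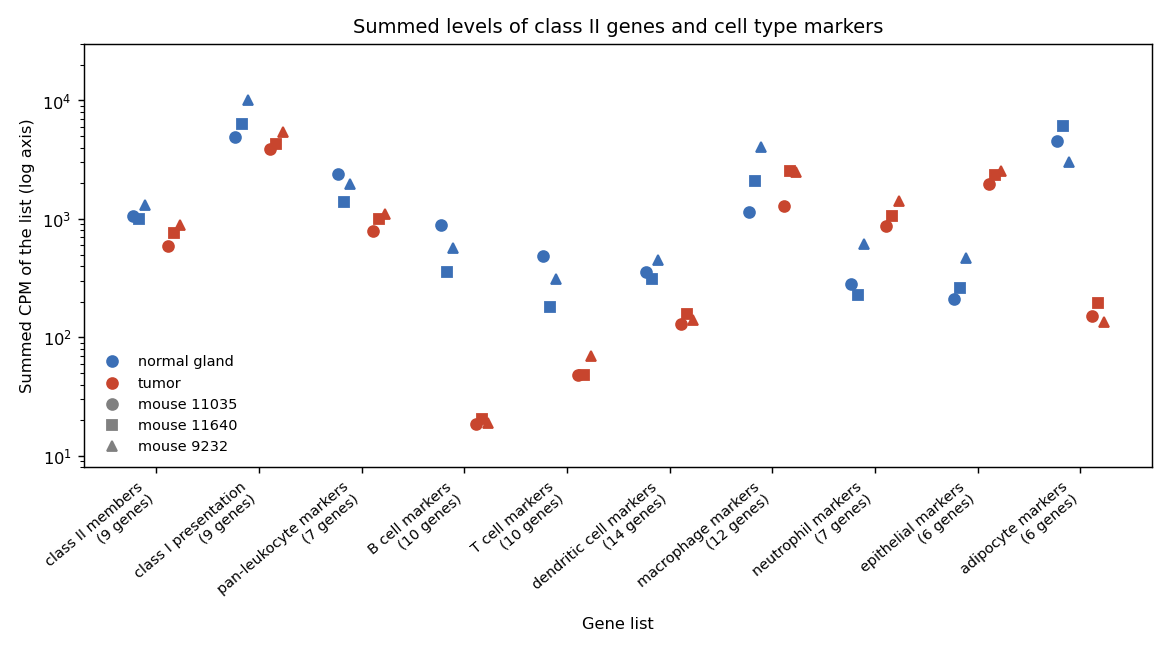
Summed CPM of each gene list in the 6 libraries, on a log axis. Blue symbols are normal glands, red symbols are tumors and shapes mark the mice. The class II sum was 999 to 1320 CPM in glands and 594 to 892 CPM in tumors, a narrow gap beside that of the B cell markers, while macrophage sums overlapped between the tissues. H2-Aa, Cd74 and H2-Ab1 (gland means of 517, 275 and 182 CPM) dominate the class II sum, so it shows little of Ciita, H2-Oa and H2-Ob.

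To find the genes whose pattern over the 6 libraries was most like that of class II chains and Cd74, the mean centred log2 profile of H2-Aa, H2-Ab1, H2-Eb1 and Cd74 was compared with 9332 genes of at least 10 CPM. The nearest 5 genes outside the 9 were Samhd1, Snx30, Psme1, Nmi and Edem1, with root mean square differences of 0.082 to 0.104 log2 units, where the median gene was at 0.492. Samhd1, which encodes a dNTP hydrolase, had 262, 253 and 337 CPM in the glands and 164, 169 and 239 CPM in the tumors, each tumor below every gland. Psme1, which encodes a subunit of the proteasome activator induced by interferon gamma, had 175, 155 and 217 CPM in the glands and 97.9, 103 and 136 CPM in the tumors. In the same measure Cd74 was at 0.112, H2-Ab1 at 0.156, H2-Eb1 at 0.187 and H2-Aa at 0.220. These genes made up the profile, so their nearness to it was fixed in advance. Of the others, H2-DMa was at 0.184 and H2-DMb1 at 0.385. Ciita at 0.776, H2-Oa at 1.108 and H2-Ob at 1.937 were farther from the profile than the median gene. The measure includes the size of the difference between the tissues, so these distances restate the fold changes in part. This likeness is a description over 6 libraries that share their tissues and mice.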

How the data were processed

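RNA of 3 mammary tumors and the 3 adjacent glands of the same mice was sequenced after amplification with the Ovation RNA-Seq System V2. According to the methods and processing notes, the authors mapped read pairs to mm9 with TopHat 2.0.3, counted fragments per RefSeq gene with HTSeq 0.5.3p9, removed genes with fewer than 10 fragments over all samples and computed CPM with edgeR 3.6.1. The authors deposited this expression signal per gene, in CPM, scaled by the effective size that edgeR gives each library. The columns therefore sum to between 952151 and 1041166 and not to a fixed total, and the unit was recorded as a signal rather than the CPM for which the test was chosen. The test is the same. Whole fragments could be recovered for 100% of values (within 0.01 of a step), and 0 columns were left out.

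Tests used limma 3.58.1 in R version 4.3.3 with its trend option, two-sided and without a block, on log2(CPM + 0.5), and p-values were adjusted by Benjamini-Hochberg over all 15280 genes. DEGs had an FDR of at most 0.05 and a fold change of at least 2. Alternatives were edgeR 4.0.16 and DESeq2 1.42.0 on recovered fragments, other pseudocounts, scalings and a filter, the mouse as a block, and leaving out each library. The mouse numbers pair the samples, since both tissues came from the same animal. Deviations from the group means correlated within mice 11035, 11640 and 9232 with r = 0.107, 0.151 and 0.0168 over 14712 genes. Between glands and tumors of different mice, r lay between −0.168 and 0.0405. The value of mouse 9232 was therefore within the range of unmatched pairs. Libraries of the same tissue differed beyond sampling noise, with at least 13.0 as the chi-square per degree of freedom. The fit was tested on simulated data.

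The 9 genes and all lists were chosen with earlier results of these data known. By the rule for named genes these are the 9 genes, of each list the members with the highest and lowest fold change and those that passed, and the 5 nearest profiles, and not every gene under the rule is printed. Irf1, Rfxap, Rfxank, Ctss, Nlrc5, Cd86, Cd40, Clec9a, Xcr1, Brd2, Tap1, Tap2, Psmb8 and Ptprc were named outside this rule or after their values were seen. So were Ifngr1, Irf2, H2-K1, H2-K2, H2-Ke6, Btnl2, BC051142, Rps18, Vps52, Ring1, Slc39a7 and Rxrb. Gene positions and transcript lengths came from GENCODE vM1 (mm9), and near-identical transcripts were found with BLAST 2.17.0. Of the interferon gamma list, 1 gene is counted but not reported here.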

Additional observations from a re-analysis of the deposited data

How the results depend on the processing

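The number of DEGs over all genes was 4309 and lay between 3774 (without tumor T11640) and 4462 (edgeR) in 14 alternatives. H2-Ob, H2-Oa and Ciita were DEGs in all of them. With the mouse as a block, 4298 genes and the same number of class II genes (3) were DEGs. The block brought H2-Aa, H2-Eb1 and Cd74 under an FDR of 0.05 without a fold change of 2, and it changed no other call among the 9 genes. The 9 genes kept their direction in every alternative. The log2 ratio of H2-Aa to H2-Ab1 lay between −0.41 and 0.01 when a library was left out, with a change of sign without gland M11640. H2-Eb1 became a DEG (−1.001, adjusted p = 0.0308) without that gland. For the 3 against 3 ratios, permutation p-values cannot pass 0.05 in any setting, and with the block they cannot go below 0.25, so they say nothing about stability. With 1 tumor fragment, the fold change of H2-Oa is limited by depth.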
